A study of Mus musculus with 8 samples.

Results

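In muscle stem cells of mice of both ages, 3258 stretches of 1 kb were picked because the recorded spread of their DNA methylation passed a threshold in old and in young cells alike. Each stretch, called a tile, is a fixed 1000-bp window of chromosomes 1 to 19. The tiles were chosen by deposited dispersion: a tile was taken when it held at least 10 listed cytosine positions and a mean dispersion of 0.1 or more in old cells and also in young cells. The 3258 tiles are 0.271% of the 1201119 tiles with at least 10 positions. Dispersion is the deposited quantity phi, of which the table gives 1 value per position and age. How it was defined is not stated in the labels or the header, so it is treated below as a number without a unit that grows with spread. Because dispersion chose the tiles, its values in them are a description and carry no test.

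The cells were quiescent skeletal muscle stem cells of male C57BL/6 mice, sorted from limb muscle by FACS as CD45-, CD31-, Sca1- and VCAM+. The 4 old mice were 22 months old and the 4 young mice 4 months old, with 1 animal per library and no other treatment or allele named. Methylation was read by whole-genome bisulfite sequencing, to a depth of 115 to 200 M reads per library per the labels' protocols. The deposited table gives 1 methylation level and 1 dispersion per age for each of 33108039 positions, with the authors' own p-value of old against young. Values of single animals are not in it, so no error between animals, no n behind a level and no test over animals can be given. Depth at a position is unknown.

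DNA methylation in mammals sits mostly on the cytosine of a CG pair, called a CpG, and because CG reads as CG on the opposite strand too, each CpG has a cytosine on each strand. Maintenance methylation copies the mark to the new strand after replication, so both cytosines of a CpG usually carry the same state. Most CpGs of a mammalian cell are methylated, CpG-dense starts of genes are mostly unmethylated, and intermediate levels arise where cells, alleles or animals differ. Muscle stem cells, also called satellite cells, rest between the muscle fibre and its basal lamina and make new fibres after injury.

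Sequences are shown first for the gene starts that carried the most positions of high dispersion, so that the places of those positions can be read. Among 31396 windows around RefSeq gene starts (250 bp before the start to 50 bp after it), 68 windows of 67 genes touched a tile of high dispersion in both ages. The 5 windows below held at least 5 positions with a dispersion of 0.1 or more in both ages in the 250 bases before the start, and were chosen after the values were seen. Letters are from RefSeq, build GRCm38.p6, 5′ to 3′. Capital CG marks a CpG with such a position on at least 1 strand, and the other CpGs stay in lower case.
Def8, chr8:123442706-123442955, + strand: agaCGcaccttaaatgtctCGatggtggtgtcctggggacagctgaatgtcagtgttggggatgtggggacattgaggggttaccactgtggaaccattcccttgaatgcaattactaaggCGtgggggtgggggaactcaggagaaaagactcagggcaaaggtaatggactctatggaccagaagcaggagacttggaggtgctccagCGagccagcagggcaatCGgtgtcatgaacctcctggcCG
Gm34170, chr6:87282515-87282764, + strand: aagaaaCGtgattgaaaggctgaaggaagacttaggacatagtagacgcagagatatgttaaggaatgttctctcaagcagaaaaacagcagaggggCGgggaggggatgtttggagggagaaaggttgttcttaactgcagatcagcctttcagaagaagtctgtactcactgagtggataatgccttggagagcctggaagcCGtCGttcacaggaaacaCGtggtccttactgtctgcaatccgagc
Vrk1, chr12:106025557-106025806, + strand: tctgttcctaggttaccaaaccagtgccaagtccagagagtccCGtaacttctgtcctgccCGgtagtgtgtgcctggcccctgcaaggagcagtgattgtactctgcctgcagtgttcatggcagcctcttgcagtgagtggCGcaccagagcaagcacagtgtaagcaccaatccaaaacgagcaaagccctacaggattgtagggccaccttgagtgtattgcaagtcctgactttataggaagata
Gm33862, chr11:3136826-3137075, + strand: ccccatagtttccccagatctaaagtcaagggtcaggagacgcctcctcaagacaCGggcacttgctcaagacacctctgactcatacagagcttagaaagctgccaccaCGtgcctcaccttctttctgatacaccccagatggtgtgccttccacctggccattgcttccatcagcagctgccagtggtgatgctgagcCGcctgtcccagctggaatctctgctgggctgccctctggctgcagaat
Sp140, chr1:85600453-85600702, + strand: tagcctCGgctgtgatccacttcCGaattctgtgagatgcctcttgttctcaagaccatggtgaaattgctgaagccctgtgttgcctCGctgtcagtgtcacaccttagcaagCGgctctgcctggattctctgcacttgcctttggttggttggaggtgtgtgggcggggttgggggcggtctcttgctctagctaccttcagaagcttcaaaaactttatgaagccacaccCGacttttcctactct

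In the Def8 window all 6 CpGs are in capitals. Over the 23 listed positions of the Def8 window, the last 50 bp included, the level was low at 6.46% in old and 5.96% in young cells, while the dispersion was 0.126 in old and 0.131 in young cells. Gm34170, a predicted gene, had 5 of 7 CpGs in capitals at a window level of 16.3% in old and 16.6% in young cells. In the bases shown for Vrk1, a nuclear kinase gene, 3 of 4 CpGs were marked, and the window level was 50.04% in old and 51.8% in young cells. For Gm33862, a predicted gene inside the span of Sfi1, 3 of 4 CpGs were marked at 57.1% in old and 57.4% in young cells. Sp140 encodes a chromatin reader of immune cells, and 5 of its 7 CpGs were marked at 58.3% in old and 52.5% in young cells. The 5 windows thus ran between nearly unmethylated and intermediate DNA, and none was near full methylation.

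The dispersion that chose the tiles averaged 0.129 in old and 0.125 in young cells, against 0.0495 in old and 0.0489 in young cells over all tiles. Its median in the chosen tiles was 0.122 in old and 0.118 in young cells, and it reached 0.404 in old and 0.293 in young cells. In 1853 of the 3258 tiles (56.9%) dispersion was higher in old cells, against 49.2% of all tiles. More tiles passed 0.1 in old cells, 8554, than in young cells, 6223. The tiles high in both ages were 38.1% of the old cells' tiles and 52.4% of the young cells' tiles, which left 5296 tiles high in old cells only and 2965 high in young cells only. Just inside the threshold were a tile 73.5 kb from Arhgef10l with 0.100007 in old and 0.101 in young cells, a tile 26.1 kb from Cyp2a12 with 0.118 in old and 0.10001 in young cells, and a tile 12.1 kb from Kifc5b with 0.10006 in old and 0.10002 in young cells. Just outside it, the tile in Mettl22 had 0.120 in old and 0.09999 in young cells, a tile 199 kb from A230072I06Rik had 0.102 in old and 0.09999 in young cells, and the tile in Fam187b had 0.101 in old and 0.09998 in young cells. The plot of dispersion in old against young cells shows no gap at the threshold.

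**Figure D1:**
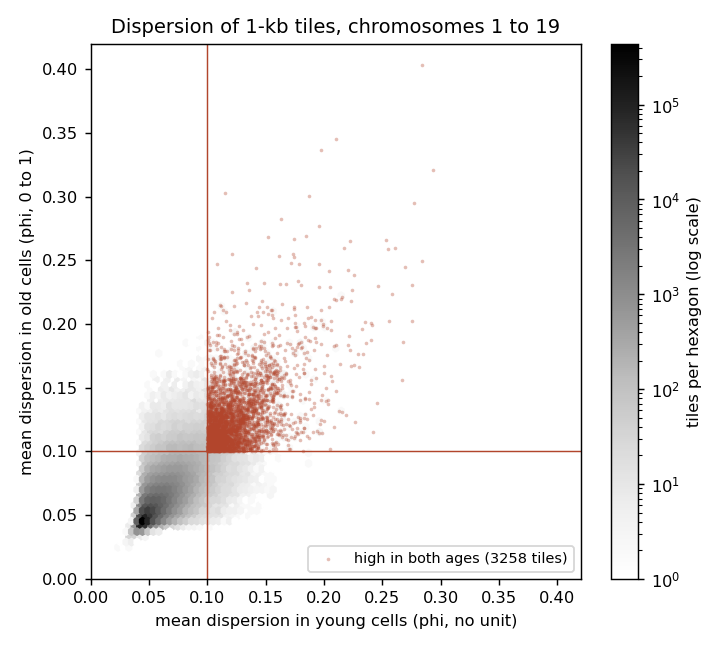
Mean dispersion (phi, no unit) of each 1-kb tile of chromosomes 1 to 19 in old cells (vertical axis) against young cells (horizontal axis); grey hexagons count all tiles on a log scale, red points are the 3258 tiles at 0.1 or more in both ages and red lines mark 0.1. Most tiles lie near 0.05 on both axes, and the red points reach 0.404 in old and 0.293 in young cells with no gap at the lines.

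The tiles had intermediate methylation. Their mean level was 56.0% in old and 55.8% in young cells, against 69.1% in old and 68.6% in young cells over all tiles. Averaged over both ages, the middle 50% of them lay between 46.0% and 66.6%. Of the 3258 tiles, 2524 (77.5%) stood between 30% and 70%, against 34.2% of all tiles. The level was under 20% in 29 tiles (0.890%), against 3.86% of all tiles, and over 80% in 91 (2.79%), against 32.1% of all tiles. The lowest tile stood at 13.3% and the highest at 89.4%.

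Counted per 10000 tiles of the same level, the tiles were most frequent at 40% to 50%, with 101 per 10000. The rate was 92.6 per 10000 at 30% to 40% and 74.5 at 50% to 60%. It was 38.4 at 60% to 70%, 14.5 at 70% to 80% and 2.71 at 80% to 90%. No tile was found under 10% or at 90% and over, among 25643 and 49973 tiles. Tiles high in old cells only and tiles high in young cells only had their highest rates in the same bin, at 140.0 and 72.5 per 10000.

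By CpG count alone the tiles were much like other tiles, while among tiles of intermediate level they were more frequent where CpGs were dense. The median was 10 listed CpGs per tile in the chosen tiles and 10 over all tiles, and the mean was 11.8 against 12.1. Over tiles of any level the rate was 21.9 per 10000 with 5 to 7 CpGs, 31.9 with 20 to 29 CpGs and 6.59 with 40 CpGs or more. Among tiles at 30% to 70%, the rate was 40.6 per 10000 with 5 to 7 CpGs, 68.9 with 10 to 14 CpGs and 103 with 20 to 29 CpGs. At 40 CpGs or more it was 137 per 10000, which rests on 10 of 732 tiles. The most CpG-dense tile, chr6:47748001-47749000 with 67 CpGs, lay 9.68 kb from the predicted gene Gm40363 and stood at 14.1% in old and 16.8% in young cells. A tile with 63 CpGs at chr12:99645001-99646000, 46.2 kb from the gene for the calcium-binding protein Efcab11, stood at 65.6% in old and 65.0% in young cells. One with 59 CpGs in the kinase gene Ulk4, chr9:121128001-121129000, stood at 41.1% in old and 40.6% in young cells.

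**Figure D2:**
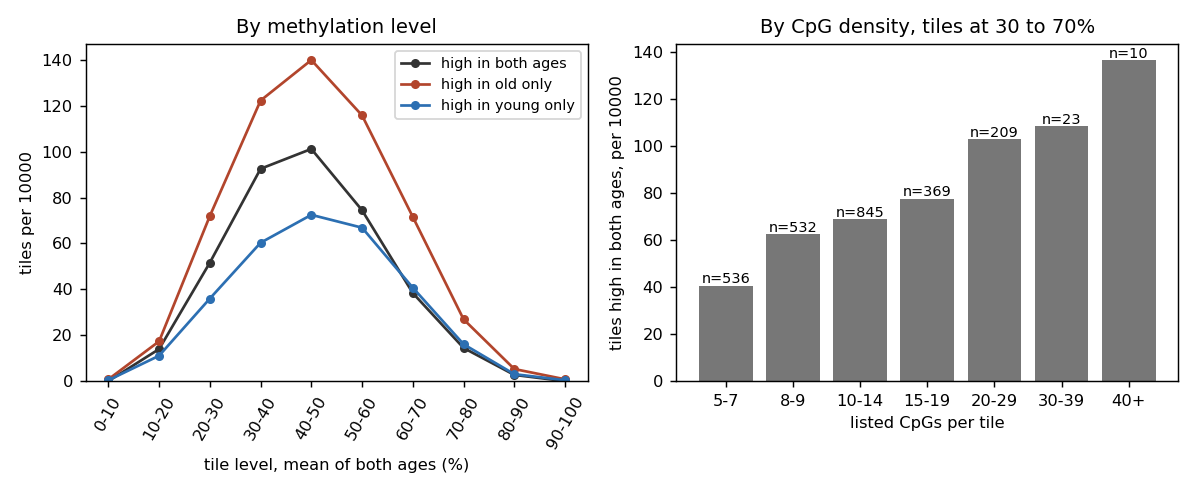
Left, tiles of high dispersion per 10000 tiles (vertical axis) by tile level in percent, mean of both ages, for tiles high in both ages, in old cells only and in young cells only; right, tiles high in both ages per 10000 by number of listed CpGs, for tiles at 30% to 70%, with the number of such tiles above each bar. All 3 lines on the left are highest at 40% to 50%, and the bars on the right run from 40.6 at 5 to 7 CpGs to 137 at 40 CpGs or more.

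Inside the tiles the methylation level often ran through a wide range. The median difference between the highest and the lowest position of a tile, averaged over both ages, was 33.5 points, against 16.2 points over all tiles. With level held the gap was small: the mean range was 34.7 points in the chosen tiles and 31.9 points in other tiles weighted to the same levels. Among tiles at 30% to 70%, the rate was 33.8 per 10000 where the range was under 10 points and 83.4 where it was 50 points or more.

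Dispersion was much lower beside the tiles than in them. The rule favours such a peak, since it set a minimum in the tiles and none beside them, so nothing is read from its shape. Dispersion stood at 0.129 in old and 0.125 in young cells in the tiles, and at 0.0544 in old and 0.0534 in young cells 1 kb before them. At 2 kb before them it was 0.0508 in old and 0.0501 in young cells. The tiles were also dips in methylation: the level was 66.0% in old and 65.6% in young cells 1 kb before them, about 10 points above the tiles. Of the 3240 tiles with a listed tile within 2 kb on each side, 1603 (49.5%) stood more than 10 points below the mean of those tiles. Other tiles of like level, from a sample of 11979, did so in 46.6% of cases, a share close to that of the chosen tiles. The plot of values around the tiles shows both quantities.

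**Figure D3:**
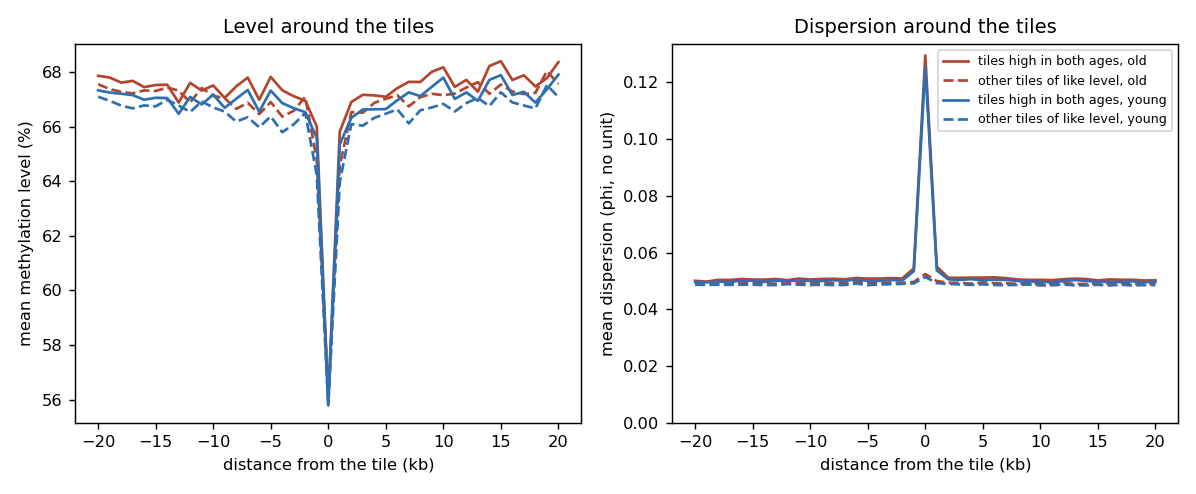
Mean methylation level in percent (left, axis not from 0) and mean dispersion (right, phi) in 1-kb tiles of old and young cells. The horizontal axis is the distance in kb from the tile. Solid lines are the tiles high in both ages, and broken lines are a sample of 11979 other tiles of like level. Level dips in both sets of lines, and dispersion peaks at 0.129 in old and 0.125 in young cells in the chosen tiles, against 0.0524 in old and 0.0514 in young cells in the others. The rule, which chose tiles by dispersion, favours this peak.

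Within a tile a few positions carried the dispersion. In the median tile the 25% of positions with the highest values held 68.8% of the summed dispersion. Of the 68677 positions in the tiles, 16176 (23.6%) were at 0.1 or more in both ages, against 1.48% of positions in all tiles. The highest values, 0.98 or more in both ages and mostly 0.9895, occurred at 269 positions in 250 tiles (7.67% of the tiles). With the tile median of dispersion in place of the mean, the rule would take 39 tiles.

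Mostly the same cytosines were high in both ages. Of the 19760 positions at 0.1 or more in old cells inside the tiles, 81.9% were also at 0.1 or more in young cells, and of the 18851 high in young cells 85.8% were also high in old cells. The choice of tiles by both ages favours this. In all other tiles 47.7% of the positions high in old cells were also high in young cells, where 2.51% of positions were high in young cells. In those tiles 56.9% of the positions high in young cells were also high in old cells. Among them, tiles high in old cells only had shares of 63.5% for positions high in old cells and 86.8% for positions high in young cells. Tiles high in young cells only had 83.0% and 72.4%. The 86.8% and 83.0% were near the shares of the chosen tiles, while the 63.5% and 72.4% were lower. Shares of that size were thus not particular to the chosen tiles. The libraries of the 2 ages came from different animals, while the genome sequence they were read against is the same, and its part was not tested.

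Most CpGs with a high cytosine were high on 1 strand only. The tiles held 11487 CpGs with both cytosines listed and at least 1 of them at 0.1 or more in both ages. In 4909 of these the plus-strand cytosine alone was high and in 5090 the minus-strand cytosine alone, while both were high in 1488 (12.95%). In all other tiles both were high in 3.01% of such CpGs. Where the plus-strand cytosine of a chosen tile was high, the minus-strand one was high in 23.3% of cases. That is close to the 23.6% of all positions in the tiles that were high. Over all tiles the same 2 shares were 6.50% and 1.48%. These shares move with the rule, which chose the tiles on the same values: 37.8% of the CpGs in the tiles had a high cytosine, against 2.46% in all other tiles. Of the 3051 tiles with such a CpG, 2196 (72.0%) had no CpG that was high on both strands. The deposited level did not differ in this way, since both cytosines had the same level in 94.6% of the tiles' CpGs. Deposited levels often repeat over runs of positions, so nothing is read from this share about the state of each strand.

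The tiles of highest dispersion show these patterns position by position. The 10 highest by the lower of both ages included 3 tiles in Sfi1, a gene for a centrin-binding centrosome protein. The first, chr11:3149001-3150000, had a dispersion of 0.321 in old and 0.293 in young cells at a level of 53.3% in old and 52.9% in young cells. In that tile 7 of 8 plus-strand cytosines and 7 of 8 minus-strand cytosines were high, with medians of 0.359 and 0.365 in old cells and 0.360 and 0.311 in young cells. Both strands were thus high together, and the only CpG with both cytosines under 0.1 had 0.0966 and 0.0615 in old cells and 0.0874 and 0.0650 in young cells.

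The tile second in that order, chr10:67859001-67860000, lay 26.1 kb from Zfp365, a zinc finger protein gene, at 31.7% in old and 30.7% in young cells. Its first 4 CpGs were high on the plus strand only: those cytosines ran between 0.868 and 0.9895 in old and between 0.425 and 0.762 in young cells. Their minus-strand partners ran between 0.0448 and 0.0639 in old and between 0.0444 and 0.0696 in young cells. The next CpG was the other way round, with 0.0441 on the plus and 0.568 on the minus strand in old cells and 0.0444 and 0.378 in young cells. In this tile the high strand changed between neighbouring CpGs, in the same manner in both ages.

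A tile 1.57 kb from Ltbr, the lymphotoxin beta receptor gene, at chr6:125304001-125305000 stood at 63.8% in old and 62.9% in young cells. It had 5 minus-strand cytosines at 0.9895 in both ages, while their plus-strand partners ran between 0.0434 and 0.531 in old and between 0.0476 and 0.179 in young cells. In Tmtc2, which encodes an O-mannosyltransferase of the endoplasmic reticulum, the tile chr10:105238001-105239000 held 26 CpGs at a level of 46.5% in old and 44.4% in young cells. High positions there lay on both strands, most of them in the first part of the listed positions, beginning with 0.670 on the plus and 0.457 on the minus strand in old cells and 0.9895 and 0.546 in young cells. The tile mean was lower in old cells, at 0.231 in old and 0.275 in young cells. The plus-strand median of this tile was 0.188 in old and 0.0719 in young cells, and the minus-strand median 0.0896 in old and 0.0757 in young cells. The plot of dispersion by position shows these 4 tiles.

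**Figure D4:**
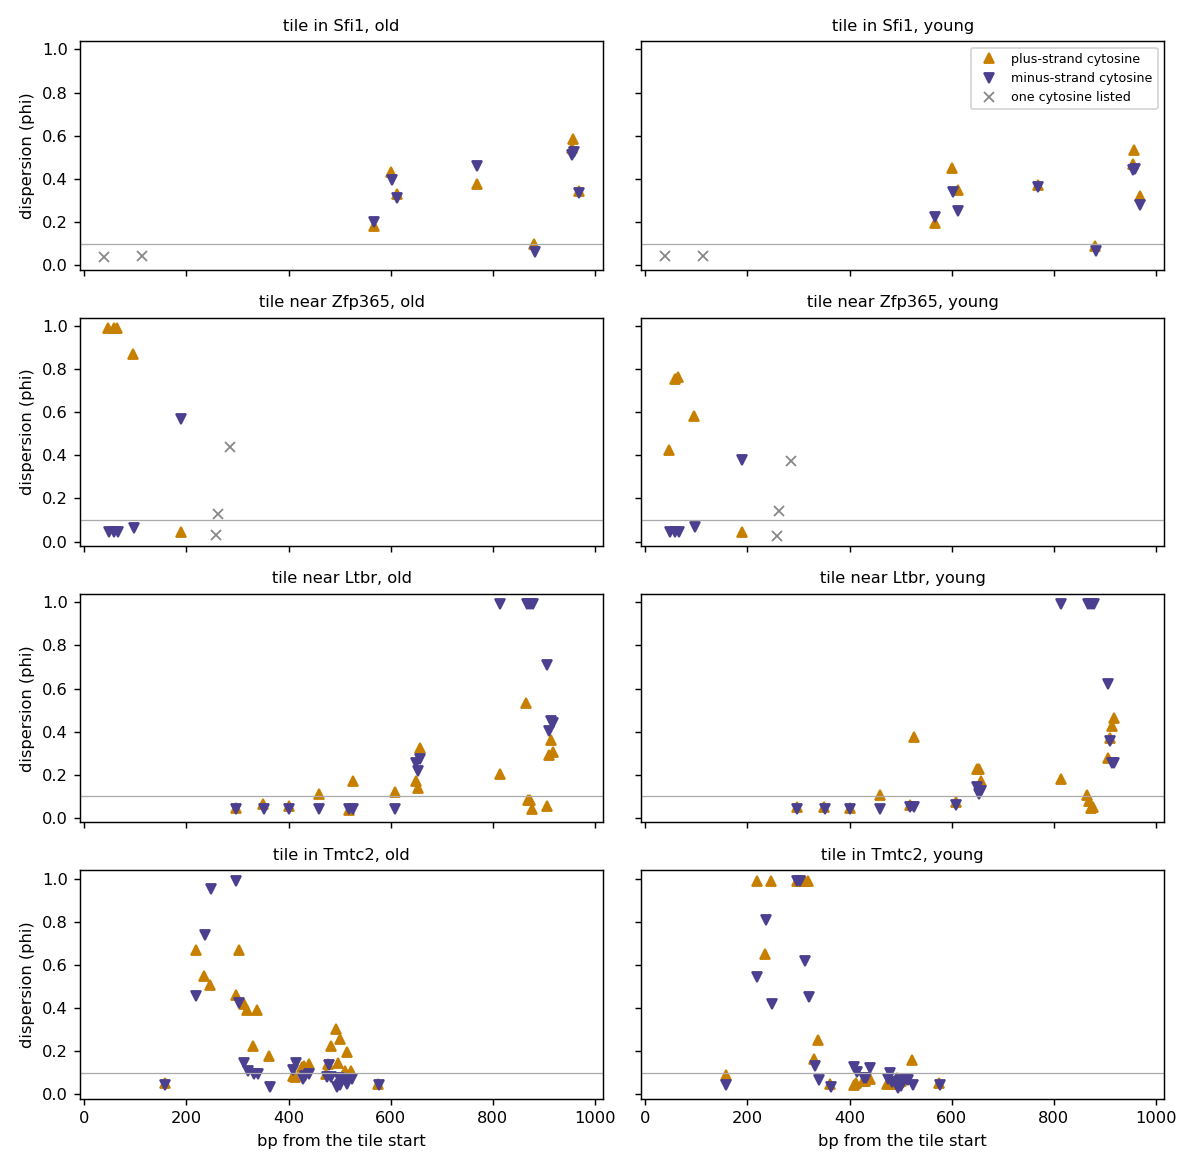
Dispersion (phi, vertical axis) of each listed cytosine by distance in bp from the tile start in 4 tiles of high dispersion, old cells on the left and young cells on the right; triangles pointing up are plus-strand, triangles pointing down minus-strand cytosines, crosses CpGs with 1 cytosine listed, and the grey line marks 0.1. Both strands are high together in the tile in Sfi1, and 1 strand at a time is high in the tile near Zfp365. Most plus-strand cytosines in the second part of the Tmtc2 tile are higher in old than in young cells, while those in its first part are lower.

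The other tiles among the 10 highest were in or near genes of unrelated kinds. A tile 6.13 kb from Lep, the leptin gene, had 0.259 in old and 0.255 in young cells and stood at 77.2% in old and 75.6% in young cells. Those in 4930415O20Rik and in Cnnm4, a magnesium transporter gene, had 0.249 and 0.245 in old and 0.284 and 0.270 in young cells. The tile in Kcnj9, which encodes a potassium channel subunit, had 0.230 in old and 0.246 in young cells.

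Sfi1 was the place where the tiles gathered most. Of the 65 tiles with enough positions across its span, chr11:3131850-3203347, 32 (49.2%) were high in both ages, and they made up 11.6% of the chromosome 11 tiles of high dispersion. Within 100 kb on either side of the gene, 2 of 99 tiles were. In the 32 tiles dispersion averaged 0.159 in old and 0.157 in young cells, and in the other tiles of the span 0.0720 in old and 0.0715 in young cells. The level of the 32 tiles was 57.1% in old and 56.5% in young cells, and that of the rest of the span 54.0% in old and 53.8% in young cells. High tiles ran along nearly the whole gene, but the tiles 70.7 and 71.7 kb from its lower-coordinate end, which are nearly unmethylated, had dispersions of 0.0459 and 0.0446 in old and 0.0463 and 0.0452 in young cells.

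In Sfi1 more of the high CpGs were high on both strands. Of 172 CpGs there with at least 1 high cytosine, both cytosines were high in 55.8%, against 12.3% of 11315 such CpGs in the tiles outside Sfi1. At least 1 cytosine was high in 51.0% of the CpGs in the Sfi1 tiles and in 37.7% of those in the other tiles. Where the plus-strand cytosine was high, the minus-strand cytosine was high too in 80% of cases, against 22.2% outside Sfi1. Of its positions high in old cells, 90.7% were also high in young cells, against 81.7% outside Sfi1. CpGs of 1 gene share their libraries and neighbourhood, so these shares have no test.

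**Figure D5:**
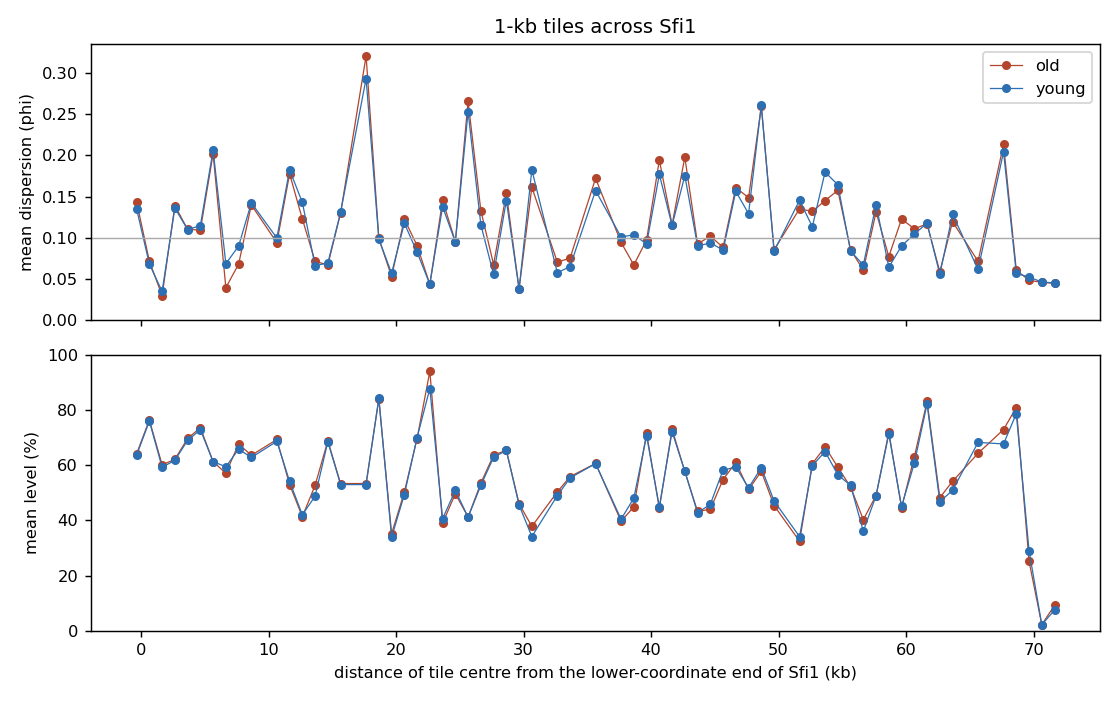
Mean dispersion (top, phi) and mean methylation level in percent (bottom) of the 65 1-kb tiles across Sfi1, in old and young cells, by distance in kb of the tile centre from the lower-coordinate end of the gene; the grey line marks a dispersion of 0.1. Tiles above the line recur along the gene in both ages, and dispersion falls under it in the nearly unmethylated tiles at the right.

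Outside the Mb that holds Sfi1, no window of 1 Mb held more than 12 of the tiles, though adjacent tiles shared high dispersion there too, as given below. The median gap between neighbouring tiles of high dispersion on a chromosome, Sfi1 included, was 315 kb. Of the 2413 windows of 1 Mb, 1022 held none, and the median window held 1. The window with the most, the Mb starting at 3 Mb on chromosome 11, held 35 tiles of 706 (4.96%), 32 of them in Sfi1. Next came the Mb starting at 88 Mb on chromosome 1, with 12 of 662 (1.81%), which holds the Ugt1a cluster and Mroh2a. By chromosome the rate ran between 20.6 per 10000 on chromosome 16 and 38.1 on chromosome 11. Without the first Mb of listed tiles, the rate on chromosome 11 was 33.5.

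Adjacent tiles shared high dispersion more often than tiles farther apart. Of the 3258 tiles, 128 (3.93%) touched another, in 57 runs of 2 tiles, 2 runs of 3 and 2 runs of 4. The tile next to a chosen one was also chosen in 2.56% of cases, and in 2.09% without the Mb that holds Sfi1, against 0.271% over all tiles. At a distance of 2 tiles the share was 0.872%, and 0.362% without that Mb. At 500 tiles it was 0.187%.

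The 5 runs with the most tiles, ties broken by dispersion, all lay in Sfi1. Of the runs elsewhere the first by the lower of both ages was a pair 2.58 kb from Arsa, the arylsulfatase A gene, at chr15:89480001-89482000, with 0.183 in old and 0.188 in young cells at 34.0% in old and 33.5% in young cells. A pair in Jarid2, which encodes a Polycomb-associated protein, stood at 70.5% in both ages with 0.166 in old and 0.229 in young cells. Pairs in Trim3 and in Dlgap1, a postsynaptic scaffold gene, followed with 0.176 and 0.173 in old and 0.165 and 0.162 in young cells.

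Relative to genes the tiles were placed much like all tiles, and inside gene spans more often than other tiles of like level. Ends of protein-coding genes had 234 of the 3258 tiles (7.18%) at 1 kb or less, against 6.76% of all tiles and 6.39% of other tiles weighted to the same levels. The span of a protein-coding gene overlapped 1715 tiles (52.6%), against 51.2% of all tiles and 45.5% of the weighted ones. Tiles high in old cells only had a like share, 51.9%, as had those high in young cells only, 52.2%. Outside every gene of the RefSeq table lay 1239 tiles (38.0%), against 39.5% of all tiles and 43.8% of the weighted ones. A long non-coding RNA gene overlapped 371 tiles (11.4%), against 10.8% of all tiles. These shares are descriptions of place and have no test.

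Distance to a RefSeq gene start was computed on chromosomes other than 18, which was not used for this. Tiles at a gene start held 19.5 chosen tiles per 10000 and those within 1 kb of one 34.4. Between 1 and 5 kb the rate was 31.3 and beyond 100 kb it was 19.02. Over all tiles, chromosome 18 included, it was 27.1. At 1 kb or less from a gene start were 5.56% of the chosen tiles. The share was 5.28% of all tiles and 5.47% of other tiles weighted to the same levels, so it was much alike. The hairpin of the microRNA gene Mir7026 lay in a tile at 61.6% in old and 63.6% in young cells, and that of Mir8107 overlapped the end of a tile at 35.02% in old and 37.2% in young cells.

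By gene, 1448 of 19427 protein-coding genes with listed tiles (7.45%) held at least 1 chosen tile, 233 held 2 or more and 5 held 5 or more. After Sfi1 came Arhgef10l with 6 of 151 tiles. Its 6 tiles stood at 60.7% in old and 59.8% in young cells. Gse1, which encodes a coiled-coil protein of corepressor complexes, had 6 of 347 tiles at 49.8% in old and 50.9% in young cells. Cacna1c, the gene of an L-type calcium channel, had 5 of 520 tiles at 47.0% in old and 47.8% in young cells. Arhgap26 had 5 of 600 at 62.1% in old and 62.3% in young cells. These are long genes, and their shares of 0.833% to 3.97% were far under that of Sfi1.

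Genes with 4 chosen tiles were Slc2a5, Mroh2a, Ano6, Gas7, Atp8a2, Nav2 and Cdh13. Slc2a5, a fructose transporter gene of 24.8 kb, had them among 25 tiles (16.0%) at 52.2% in old and 52.3% in young cells. Cdh13, the T-cadherin gene, had them among 984 (0.407%) at 70.2% in old and 68.8% in young cells. The Ugt1a genes of bile pigment and drug glucuronidation share their last exons, and the same 3 tiles, at 61.0% in old and 59.2% in young cells, counted for each of Ugt1a1, Ugt1a2 and Ugt1a5.

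Imprinted genes, in which the parental alleles differ in methylation, held 6 chosen tiles among 2173 (0.276%), a share near the 0.271% of all tiles. The tile at an end of H19, a maternally expressed non-coding RNA, stood at 66.3% in old and 60.4% in young cells with a dispersion of 0.105 in old and 0.132 in young cells. In Plagl1, a zinc finger gene expressed from the paternal allele, the tile stood at 55.4% in old and 53.9% in young cells with 0.197 in old and 0.192 in young cells. A tile shared by Igf2r and its antisense RNA Airn stood at 28.2% in old and 25.3% in young cells. The tile in Herc3, a ubiquitin ligase gene, stood at 46.1% in old and 42.5% in young cells. Trappc9, a gene of vesicle traffic, had 2 adjacent tiles, at 62.3% and 44.1% in old and 59.2% and 38.7% in young cells.

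All 6 of these tiles had the higher level in old cells, by 1.45 to 5.90 points. The level was higher in old cells in 52.3% of the chosen tiles and in 56.1% of all tiles. The Trappc9 tiles among the 6 are adjacent and are not separate observations. The list was written with earlier results of these data known and the direction has no test. Genes beside variably methylated insertions of the IAP retrotransposon, known in C57BL/6 mice for levels that differ between littermates, held 1 tile among 755 (0.132%). That tile, in Pink1, stood at 47.7% in old and 47.9% in young cells. Genes of limb position, the Hox clusters among them, held 0 of 1008 tiles. At the 0.271% of all tiles, lists of these sizes would hold few, so nothing is read from either count.

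Markers of muscle stem cells held 0 of 337 tiles, those of blood cells 0 of 249 and those of glia 0 of 124. At the 0.271% of all tiles, lists of this size would hold few or none, so nothing is read from these counts. At the less methylated end of 8 muscle stem cell markers, Pax7 and Myod1 among them, the level ran between 3.07% and 25.5% in old and between 2.93% and 24.1% in young cells, with 7 of the 8 under 20% and dispersion no higher than 0.0511 in old and 0.0499 in young cells. The same ends of markers of other cell types were mixed: under 20% were 2 of 6 endothelial, 2 of 6 blood, 3 of 5 fibro-adipogenic, 1 of 4 muscle fibre, 3 of 3 smooth muscle and 1 of 2 glial genes. The part of other cell types in the dispersion was not tested.

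Endothelial markers held 2 chosen tiles among 663 (0.302%), against 0.271% of all tiles, in Erg, a transcription factor gene, and in Flt1, a VEGF receptor gene. The Erg tile had 0.202 in old and 0.116 in young cells at 71.4% in both ages. The podoplanin gene Pdpn held the 1 tile of the fibro-adipogenic and tendon list, among 273 (0.366%). In the muscle fibre list, 1 of 608 tiles (0.164%) was chosen, at an end of Mylpf, the fast myosin light chain gene, and it stood at 28.5% in old and 29.4% in young cells. Pericyte and smooth muscle markers held 4 of 309 (1.29%, against 0.271% of all tiles), 2 of them adjacent. These were in Myh11, the smooth muscle myosin gene, in Abcc9, a potassium channel subunit gene, and a pair in Cspg4, the NG2 proteoglycan gene. The Cspg4 pair stood at 39.6% and 42.5% in old and 39.99% and 42.4% in young cells. Lists of these sizes would hold few or none at the share of all tiles, so nothing is read from these 4 counts either.

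Enzymes that write or erase methylation held 3 of 521 tiles (0.576%), against 0.271% of all tiles. Of these 2 were in Dnmt3a, the de novo methyltransferase gene, at 38.2% and 33.5% in old and 39.97% and 36.4% in young cells. One was in Tdg, a thymine DNA glycosylase gene, at 71.8% in old and 68.0% in young cells. A list of this size would hold few at the share of all tiles, so nothing is read from the count. A list of multicopy and rDNA-linked genes held 33 of 531 tiles, which were the 32 of Sfi1 and 1 in Srsf3, a splicing factor gene. Gene families by symbol are set against the 0.271% of all tiles: zinc finger genes named Zfp held 17 of 7841 tiles (0.217%), olfactory receptor genes 4 of 964 (0.415%), Vmn genes 1 of 502 (0.199%) and clustered protocadherins 1 of 338 (0.296%).

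Across the tiles the mean level of old and young cells was close. The difference, old minus young, was 0.20 points with an SD of 3.48 over the 3258 tiles, while all tiles had a mean difference of 0.49 points. Other tiles weighted to the same levels had 0.39 points. Over the 19 chromosomes the mean difference had an SD of 0.247 points and ran between -0.23 on chromosome 18 and 0.68 on chromosome 16, and it was positive on 14. In 1704 tiles (52.3%) the level was higher in old cells, against 56.1% of all tiles. Chromosomes share the same 8 animals, so their spread is no replicate error.

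Large differences were few. At 10 points or more were 14 tiles higher and 15 lower in old cells, 0.890% of the tiles, against 2.03% of all tiles. Other tiles weighted to the same levels reached 10 points in 3.26% of cases. At 5 points or more were 450 (13.8%), against 16.4% of all tiles and 22.1% of the weighted ones. Tiles high in old cells only reached 10 points in 2.27% and those high in young cells only in 1.62%.

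The highest positive difference, 12.6 points, was in a tile 73.9 kb from the pseudokinase gene Trib1, at 51.8% in old and 39.2% in young cells. Tiles near Ccdc172 and Gm536 stood at 75.9% and 62.7% in old and 63.6% and 50.6% in young cells. The tile in Ppm1g, a protein phosphatase gene, was at 67.4% in old and 55.6% in young cells, and the tile in Stim2, the gene of a calcium sensor of the endoplasmic reticulum, at 51.7% in old and 39.9% in young cells.

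In the other direction the first was a tile on chromosome 18, 427 kb from the ferritin gene Ftmt, at 53.6% in old and 70.1% in young cells, a difference of -16.6 points. The tile in Srgn, which encodes the proteoglycan serglycin, was at 43.8% in old and 58.6% in young cells. In Fbln1, an extracellular matrix gene, the tile was at 50.4% in old and 64.9% in young cells. Tiles in Camsap3 and Arhgap21, genes of the cytoskeleton, were at 48.2% and 38.8% in old and 62.5% and 53.0% in young cells. None of these 10 tiles passed the test by p that follows.

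For a tile, 2 times the median of the authors' deposited p-values over its positions was adjusted by the Benjamini-Hochberg method over all 1201119 tiles. At 0.05 it called 0 of the 3258 tiles, against 8.33e-05% of all tiles, which is 1 tile. At an unadjusted 0.05 it also called 0, against 0.102% of all tiles. The smallest unadjusted value among the 3258 was 0.113, in the Fbln1 tile. By a Cauchy combination of the p-values in place of the median, which 1 small p can decide, 33 tiles (1.01%) were called, against 1.34% of all tiles. Of the 68677 positions, 48 had in the authors' deposited table an FDR under 0.05, or 6.99 per 10000, against 8.37 per 10000 (0.0837%) over all tiles. Those 48 lay in 43 tiles (1.32%), against 1.62% of all tiles. How the authors' p-values use dispersion is not stated in the labels or the header, so the few calls are printed as they are, with nothing read from them about age.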

How the data were processed

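Whole-genome bisulfite libraries of muscle stem cells fell by labelled age into 4 old and 4 young. Per the labels' protocols, 150 ng of DNA was amplified with 14 PCR cycles and read as paired ends of 101 bp. The submitters' processing notes name Bismark, edgeR and Trim Galore as tools and GRCm38 and mm10 as builds, without versions or roles. The authors deposited 1 table of group values. Its level (mu) is a fraction from 0 to 1 per the file headers, printed here in percent, and often repeats over runs of neighbouring positions. Its dispersion (phi) per age comes from the authors per the file headers. A p-value for the age difference and an FDR, which is a p-value adjusted for multiple tests, are deposited per position. Neighbouring levels are therefore not independent, and narrow differences may be flattened.

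Positions in the table count from 0: shifted by 1, all 760777 checked against RefSeq promoter sequence fell on a CG. Tiles are printed 1-based. Levels, dispersions and ranges were averaged over positions of a tile with equal weight. Comparison values "weighted to the same levels" are means of other tiles after weighting bins of 5 points of level to the chosen tiles. Gene spans and starts came from RefSeq tables of GRCm38.p6 (20665 protein-coding genes on the chromosomes used). The members and lists were chosen with earlier results of these data known. Genes were named by fixed rules: the 10 tiles of highest dispersion by the lower age, the runs with the most tiles, the 5 differences at each extreme, 3 tiles at each side of the threshold, the 15 genes with the most tiles (ties by their share of tiles) and list genes with a tile. The tiles with the most CpGs, the microRNAs, the promoters shown and the 4 tiles plotted by position were chosen after values were seen. The tile test was tested on simulated data and recovered the 200 changed tiles. Every position of those tiles had been given a very small p-value, and other positions were drawn independently. Recovery was thus near certain, so this checks the computation and says nothing about power on the deposited p-values. No test over animals was made, since the table holds group values. Alternatives were other minima, thresholds, tile sizes and offsets, the tile median, chromosome X, leaving out positions at the commonest dispersion value, other gene windows, and leaving out Sfi1. Python 3.11.15, numpy 2.4.6, pandas 2.3.3, scipy 1.17.1 and matplotlib 3.10.9 were used.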

Additional observations from a re-analysis of the deposited data

How the results depend on the processing

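The number of tiles depended on the rule. It was 1448 with at least 20 positions, 228 at a dispersion of 0.15, 12742 at 0.08, 39 by the tile median, 780 with 2-kb tiles and 5750 with positions at the commonest dispersion value left out. It was 4607 with at least 6 positions, 3228 with tiles shifted by 500 bp, 3278 with chromosome X and 3226 without Sfi1, a setting chosen after seeing the data. The mean level, 55.9%, was 54.2% with at least 20 positions, 54.1% at a dispersion of 0.15, 57.3% at 0.08 and 58.9% with 2-kb tiles. The mean difference, old minus young, 0.20 points, was 0.11 to 0.30 points under the settings run except -0.02 points at a dispersion of 0.15; each of these moved by less than the SD of 0.247 points over chromosomes.

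The share near a gene end, 7.18%, was 8.84% with at least 20 positions, 6.06% with at least 6, 5.13% by the tile median, 6.29% with shifted tiles, 11.9% within 2 kb and 13.5% for ends of all genes. The share with an adjacent tile, 3.93%, was 0.877% at a dispersion of 0.15, 5.93% at 0.08, 5.13% by the tile median, 3.19% with shifted tiles, 2.95% with 2-kb tiles and 6.78% for up to 5 tiles away. Calls by p were 0 under each setting run except 33 by the Cauchy combination. The causes of these changes were not tested.

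No paired analysis was possible because the table holds group values only. For the same reason, leaving out single animals was not run. Levels repeat over neighbouring positions, depth at a position is unknown, and the share of the dispersion that comes from animals, cells or reads cannot be told apart.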
